A study of Mus musculus with 9 samples.

Results

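The mevalonate, sterol and fatty acid synthesis genes were followed as a group through RNA-sequencing of mouse embryonic stem cells. They were chosen by name, with earlier results of these data known. The shares of members called below thus describe the list and are no independent support for it. The list holds 33 symbols covering the enzymes of the mevalonate and sterol pathway, the regulators of the SREBP transcription factors, and SREBP-controlled enzymes of fatty acid synthesis and desaturation. Of these, 32 had a row in the deposited table of 33924 genes, and all 32 were among the 14772 genes with enough counts to be tested. Hmgcs1 was not matched to a row under its symbol or an older one and was not analysed here. The 3 groups, of 3 libraries each, were UTX knockout cells, cells labelled as an MLL4 knockdown, and UTX wild type cells. The UTX knockout libraries carry the line name A6 in their titles. The labelled MLL4 knockdown libraries carry the line name JM8A followed by a further number that the labels do not explain, and the wild type libraries carry JM8A alone. All are labelled as untreated male embryonic stem cells grown on gelatin, with serum and the self-renewal cytokine LIF. UTX (gene Kdm6a) removes a repressive methyl mark from histones, and MLL4 (gene Kmt2d) adds methyl groups to histones at enhancers. The study's title places both in a network with the acetyltransferase p300 that acts on enhancers. The labels give neither the allele of the knockout nor the reagent of the knockdown. The UTX knockout and labelled MLL4 knockdown libraries are together called the 6 non-wild-type libraries. The effect of losing UTX and a difference between the lines A6 and JM8A cannot be told apart. The labels do not tell whether the labelled MLL4 knockdown libraries come from a line or clone of their own. An effect of the knockdown and such a difference cannot be told apart either.

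Cells build cholesterol from acetyl-CoA: the mevalonate branch makes isoprenoid units, squalene synthase commits them to sterols, and a chain of reductions and demethylations turns lanosterol into cholesterol. The transcription factors SREBP1 and SREBP2, encoded by Srebf1 and Srebf2, drive most of these genes together. SCAP carries the SREBP precursors out of the endoplasmic reticulum when sterols are low, and the INSIG proteins hold them back when sterols are plentiful. SREBP1 is best known for the fatty acid enzymes and SREBP2 for the sterol enzymes, and in cultured cells both respond to the lipids in serum.

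Counts assigned to genes ran between 18570746 and 23874816 per library, and values below are CPM, counts relative to the scaled library total, which compare libraries but not genes of different length. Kdm6a checked the knockout labels. It had 12.8, 16.9 and 19.4 CPM in UTX knockout libraries, 113, 108 and 99.7 CPM in labelled MLL4 knockdown libraries and 89.0, 57.1 and 90.6 CPM in wild type libraries, a log2 fold change of -2.27 (adjusted p = 0.000143, SE 0.20) for knockout against wild type. Kmt2d, which the table lists under its older symbol Mll2, had 109.6, 96.9 and 130 CPM in UTX knockout libraries, 71.0, 72.0 and 73.4 CPM in labelled MLL4 knockdown libraries and 86.1, 43.5 and 119 CPM in wild type libraries. The labelled knockdown libraries lay within the wild type range, with a log2 fold change of -0.20 (adjusted p = 0.623, SE 0.27). They lay below every UTX knockout library, with a log2 difference of -0.64 (adjusted p = 0.0978, SE 0.27) that was not called. A lower Kmt2d level than in wild type was thus not detectable, and those libraries are named by their label throughout. All 4 tested genes of the Y chromosome fell in both comparisons with wild type, with a median log2 fold change of -3.93 in UTX knockout and -4.18 in labelled MLL4 knockdown cells, although all libraries are labelled male.

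The 7 embryonic stem cell markers summed to between 3167 and 4425 CPM in every library, with hepatocyte or adipocyte markers below 1 CPM. Among these 7, 0 rose and 1 fell in UTX knockout, with log2 fold changes from -0.552 to 0.425. In the labelled MLL4 knockdown 2 rose and 2 fell, with values from -1.08 to 0.765. Over all tested genes, 6.64% rose and 8.98% fell in UTX knockout, and 10.8% rose and 15.8% fell in the labelled MLL4 knockdown. The summed trophectoderm markers were 34.0, 50.1 and 62.7 CPM in UTX knockout libraries, 37.7, 38.5 and 42.3 CPM in labelled MLL4 knockdown libraries and 63.7, 498 and 412 CPM in wild type libraries, so wild type replicates 2 and 3 stood apart from the other libraries. Of 6 tested trophectoderm markers, 5 fell in UTX knockout and 4 in the labelled MLL4 knockdown. The summed neural markers were 73.4, 63.2 and 73.1 CPM in UTX knockout libraries, 97.2, 80.6 and 82.6 CPM in labelled MLL4 knockdown libraries and 193, 140.3 and 147 CPM in wild type libraries, highest in all wild type libraries. Of 4 tested neural markers, 3 fell in UTX knockout, and 2 fell and 1 rose in the labelled MLL4 knockdown. The summed primitive endoderm markers were 13, 13.6 and 16.98 CPM in UTX knockout libraries, 23.9, 22.3 and 24.6 CPM in labelled MLL4 knockdown libraries and 15.6, 11.9 and 14.5 CPM in wild type libraries, highest in the labelled knockdown. Of 5 tested, 1 rose and 1 fell in UTX knockout, and 2 rose in the labelled MLL4 knockdown. The summed fibroblast markers were 9.32, 8.51 and 8.12 CPM in UTX knockout libraries, 8.92, 10.4 and 11.2 CPM in labelled MLL4 knockdown libraries and 13.03, 20.7 and 21.3 CPM in wild type libraries, with Lum at 0 in every library and the collagen genes Col1a1 and Col1a2 lower in both non-wild-type groups. Of 4 tested fibroblast markers, 1 rose and 2 fell in UTX knockout, and 1 rose and 3 fell in the labelled MLL4 knockdown. Genes of chromosome 8 had a median log2 fold change of -0.44 in UTX knockout and -0.41 in labelled MLL4 knockdown cells against wild type, and the median of all tested genes was -0.01 and -0.02. The part of these differences in the results below was not tested unless a value is given beside them. The labels do not tell whether replicates were grown apart. The p-values thus rest on the spread between these libraries alone, and that spread may be technical. In bulk RNA, fewer cells of a type and less RNA per cell cannot be told apart.

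In UTX knockout cells, 15 of the 32 genes rose against wild type and 0 fell, where 6.64% of all tested genes rose and 8.98% fell (edgeR quasi-likelihood test). A gene was called, and is said to have risen or fallen, at an adjusted p under 0.05. For the 0 that fell, no gene fell at an unadjusted p under 0.05, and DESeq2 also found 0. The increases lay between 0.42 and 1.35 on the log2 scale, and 9 of the 15 genes were enzymes of the squalene and sterol branch. The median log2 fold change of the 32 genes was 0.46, against -0.01 over all tested genes. It was positive for 29 of the 32, against 7271 of all 14772 tested genes. For 19 of the 32, every knockout library was above every wild type library, a pattern seen for 15.4% of all tested genes. No member had every knockout library below every wild type library, against 16% of tested genes. Leaving out UTX knockout replicate 2 or replicate 3 brought the number that rose to 9. Fitted with only the 2 groups compared, the number was also 9, and the calls of Lss, Tm7sf2, Nsdhl, Hsd17b7, Dhcr7 and Elovl6 were lost, with adjusted p from 0.0508 to 0.0933.

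In the libraries labelled MLL4 knockdown, 10 of the 32 genes rose against the same wild type libraries and 0 fell, where 10.8% of all tested genes rose and 15.8% fell (edgeR). None fell at an unadjusted p under 0.05, and DESeq2 found 0. The increases lay between 0.35 and 1.40 on the log2 scale. Over the 32 genes the median log2 fold change was 0.35, against -0.02 over all tested genes. It was positive for 29 of the 32, against 7150 of all 14772 tested genes. For 18 of the 32, every labelled knockdown library was above every wild type library, against 20.5% of all tested genes. Without wild type replicate 1 the number that rose was 18, and without labelled MLL4 knockdown replicate 1 or replicate 2 it was 6. Because both comparisons use the same wild type libraries, a low or high wild type value moves both, and their calls are given side by side without a test of overlap.

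Wild type had the lowest mean for most members, while the order of the non-wild-type groups differed between genes. From high to low, UTX knockout, labelled MLL4 knockdown and wild type was the order for 17 genes. For 10 genes the labelled MLL4 knockdown came first and UTX knockout second. The share of all tested genes with each order was not computed. The mean level was lowest in wild type for 27 of the 32 genes. It was highest in UTX knockout for 19 and highest in the labelled MLL4 knockdown for 12, with Mvd the only gene highest in wild type. In the sum over the 32 genes, the UTX knockout libraries had 4608, 4731 and 4919 CPM, the labelled MLL4 knockdown libraries 4936, 5044 and 4799 CPM, and the wild type libraries 3928, 3009 and 3433 CPM. All 6 non-wild-type libraries were above all 3 wild type libraries.

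**Figure D1:**
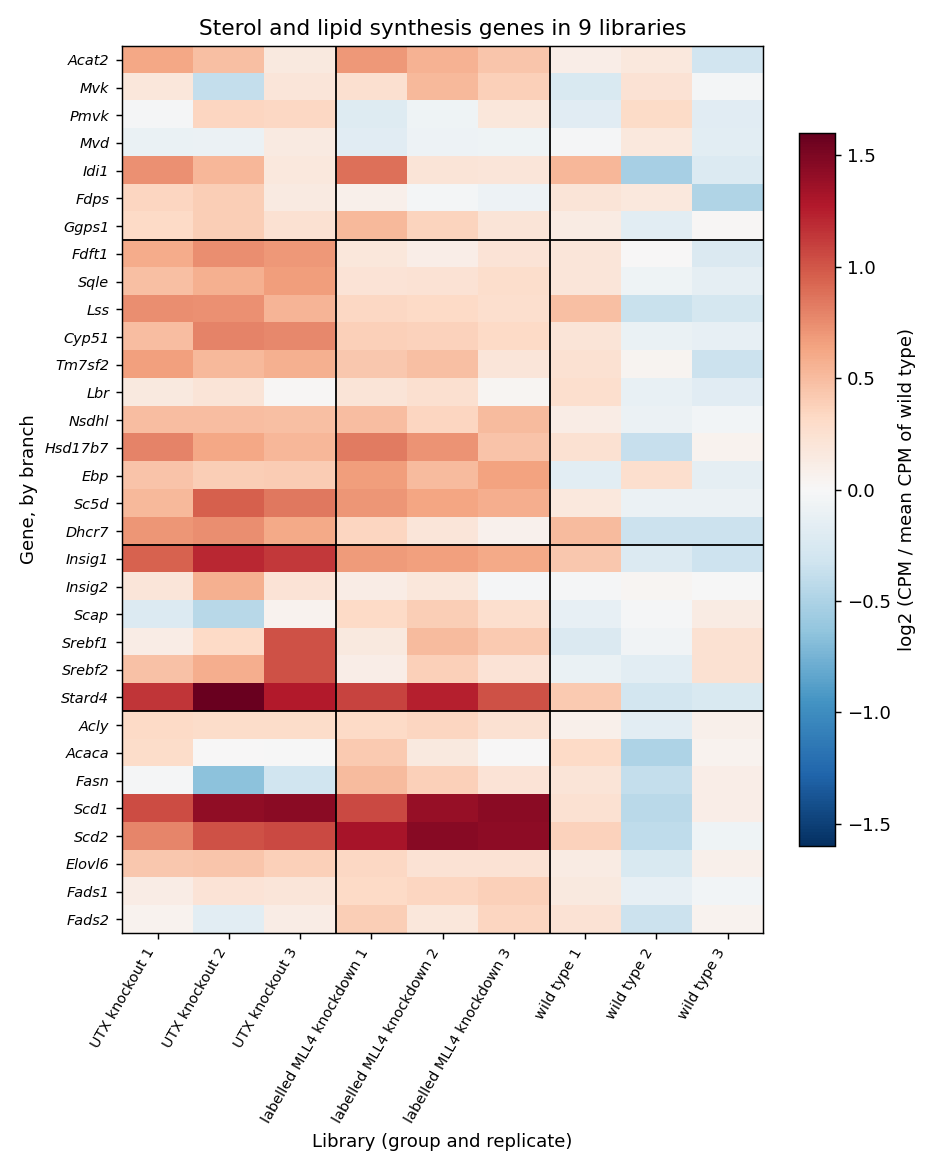
Each cell is the log2 ratio of a gene's CPM in 1 library to its mean CPM in wild type, for the 32 genes (rows, grouped by branch) in the UTX knockout, labelled MLL4 knockdown and wild type libraries (columns). The wild type columns are the lowest for most rows, least so for wild type replicate 1, while most sterol rows are darkest in the UTX knockout columns, and red marks levels above the wild type mean.

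The wild type libraries differed among themselves in these genes. Wild type replicate 1 was the highest of its group for 23 of the 32 genes, or 71.9%, against 35% of all tested genes. Wild type replicate 2 was the lowest for 16 of them, or 50%, against 36.8% of all tested genes. The median deviation of the members from their wild type mean was 0.20 on the log2 scale in replicate 1, -0.12 in replicate 2 and -0.06 in replicate 3. In the UTX knockout and labelled MLL4 knockdown libraries no median deviation exceeded 0.05. The sequencing lane named in the titles puts replicates 1 and 3 of each group in lane 2 and replicate 2 in lane 1. With lane 2 alone, the 15 genes that rose in UTX knockout kept a positive log2 fold change, from 0.30 to 1.09, but none was called, with adjusted p from 0.0563 to 0.353 by edgeR and 13 of the 15 at an unadjusted p under 0.05. The 10 genes that rose in the labelled MLL4 knockdown also kept a positive log2 fold change in lane 2, from 0.29 to 1.20, and 4 were called. Lane 1 holds 1 library per group and gives no test. For all 15 genes called in UTX knockout and all 10 called in the labelled MLL4 knockdown, every library was above every wild type library. Their higher level in 3 of 3 pairs of libraries with the same number follows from this. So does their positive direction in lane 2, and neither is further support. Libraries of the same number deviated together, though weakly for replicate 2. With the replicate number as a block, 19 genes rose in UTX knockout and 15 in the labelled MLL4 knockdown.

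**Figure D2:**
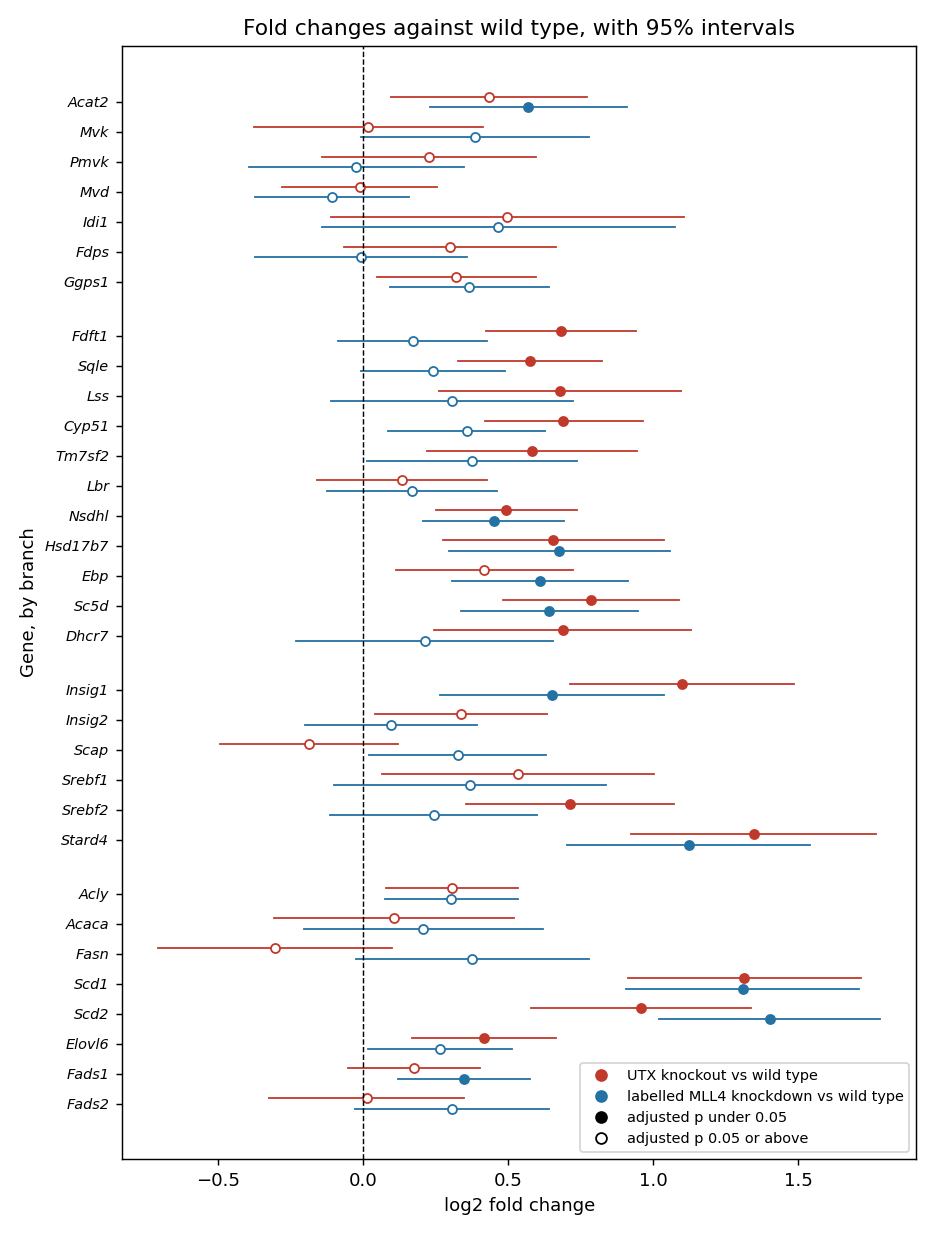
Log2 fold change of each of the 32 genes against wild type, with 95% confidence intervals, for UTX knockout and for the labelled MLL4 knockdown, grouped by branch. Filled points have an adjusted p under 0.05. In the sterol branch all points lie right of 0, those of Fdft1, Sqle, Lss, Cyp51 and Dhcr7 further right in UTX knockout, and in the fatty acid branch Scd1 and Scd2 lie far to the right in both.

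Promoters of some members that rose in both comparisons are printed here, because sterol-responsive promoters are known to pair SREBP sites with NF-Y and Sp1 sites. RefSeq promoter windows were matched for 25 of the 32 genes. For the genes that rose in both comparisons and have a window, the 250 bases before the gene's start follow, 5′ to 3′ on the gene's strand in build GRCm38.p6. Capitals mark the NF-Y box CCAAT and the GC box GGGCGG, each searched on both strands, so that ATTGG and CCGCCC are also marked. The position of each window is chr5:28071162-28071411 on the plus strand for Insig1, chr9:42264301-42264550 on the minus strand for Sc5d, chrX:72918271-72918520 on the plus strand for Nsdhl and chr1:169969206-169969455 on the minus strand for Hsd17b7.
Insig1: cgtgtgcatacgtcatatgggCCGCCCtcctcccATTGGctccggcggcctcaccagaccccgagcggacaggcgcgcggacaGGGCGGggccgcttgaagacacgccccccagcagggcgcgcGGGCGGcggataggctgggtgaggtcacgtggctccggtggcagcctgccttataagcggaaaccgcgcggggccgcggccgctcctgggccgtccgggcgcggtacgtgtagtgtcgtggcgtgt
Sc5d: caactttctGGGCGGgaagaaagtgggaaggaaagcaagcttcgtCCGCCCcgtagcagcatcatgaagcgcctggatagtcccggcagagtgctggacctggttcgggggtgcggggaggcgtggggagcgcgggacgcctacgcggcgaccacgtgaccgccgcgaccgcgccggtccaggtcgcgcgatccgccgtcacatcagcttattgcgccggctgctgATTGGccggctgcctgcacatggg
Nsdhl: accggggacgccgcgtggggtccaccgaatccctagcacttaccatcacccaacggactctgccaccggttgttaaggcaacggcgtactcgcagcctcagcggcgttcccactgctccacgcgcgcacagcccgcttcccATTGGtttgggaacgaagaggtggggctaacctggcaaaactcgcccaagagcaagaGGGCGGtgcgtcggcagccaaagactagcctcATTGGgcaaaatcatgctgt
Hsd17b7: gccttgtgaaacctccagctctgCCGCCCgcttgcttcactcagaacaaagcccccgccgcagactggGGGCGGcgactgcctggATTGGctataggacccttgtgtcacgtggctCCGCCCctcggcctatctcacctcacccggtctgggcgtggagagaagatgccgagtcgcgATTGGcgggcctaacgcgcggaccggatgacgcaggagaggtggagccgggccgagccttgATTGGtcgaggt
Over the whole windows of 300 bases, CCAAT was present in 19 of the 25 members' promoters, or 76%, against 37.9% of all 27025 promoters and 39.1% of the promoters of tested genes. GGGCGG was present in 18 of 25, or 72%, against 35.9% of all promoters and 65.2% of those of tested genes. The sterol-response motif TCACNCCAC, searched on both strands, was in 0 of 25 windows, against 1.22% of all promoters and 1.11% of those of tested genes. With so low a share, 0 of 25 does not set the members apart from other genes. Sterol-response sites with other letters were not searched, so the members may still hold them. These are matches of letters in this window and were not tested against the expression values.

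The mevalonate and isoprenoid branch had the fewest calls. In UTX knockout, 0 of its 7 measured genes were called in either direction, with 2 higher and 0 lower at an unadjusted p under 0.05 by edgeR and 0 called by DESeq2. The branch median was 0.30 on the log2 scale in UTX knockout and 0.37 in the labelled MLL4 knockdown. The single call in the labelled MLL4 knockdown was Acat2, the cytosolic thiolase that joins acetyl-CoA units at the start of the pathway. It had 79.8, 72.7 and 58.1 CPM in UTX knockout libraries, 84.1, 76.7 and 70.5 CPM in labelled MLL4 knockdown libraries and 55.7, 58.2 and 41.9 CPM in wild type libraries. All labelled knockdown libraries were above all wild type libraries, while UTX knockout replicate 3 fell within the wild type range. The log2 fold change was 0.57 (adjusted p = 0.0197, SE 0.15) in the labelled MLL4 knockdown and 0.43 (adjusted p = 0.0793, SE 0.15) in UTX knockout. The UTX knockout value was called too with the replicate block (adjusted p = 0.0138) and with a correction for transcript length (0.0343). The call in the labelled MLL4 knockdown was lost without labelled knockdown replicate 1 (0.0698) or 2 (0.0592) or wild type replicate 3 (0.0568), the adjusted p in brackets. Acat2 has a near-identical neighbour, Acat3, and reads shared between them make its level uncertain.

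Ggps1, which makes the geranylgeranyl chains used to anchor proteins in membranes, had 40.5, 42.6 and 38.6 CPM in UTX knockout libraries, 46.5, 41.6 and 37.6 CPM in labelled MLL4 knockdown libraries and 35.7, 28.8 and 33.03 CPM in wild type libraries. Every non-wild-type library was above every wild type library, but the log2 fold changes of 0.32 (adjusted p = 0.105, SE 0.12) in UTX knockout and 0.36 (adjusted p = 0.0505, SE 0.12) in the labelled MLL4 knockdown were not called by edgeR. It was called in the labelled MLL4 knockdown by DESeq2 (adjusted p = 0.0284), in edgeR with DESeq2's size factors (0.0482), with a correction for transcript length (0.0402), with the replicate block (0.034) and without wild type replicate 1 (0.0295). Idi1, the isomerase that interconverts the isoprenoid units, had 21.2, 18.6 and 14.4 CPM in UTX knockout libraries, 23.6, 14.9 and 14.7 CPM in labelled MLL4 knockdown libraries and 18.6, 8.86 and 11.1 CPM in wild type libraries. Its groups overlapped, with log2 fold changes of 0.50 in UTX knockout and 0.47 in the labelled MLL4 knockdown. With the replicate block both were called, at an adjusted p of 0.0335 in UTX knockout and 0.0387 in the labelled MLL4 knockdown, and without wild type replicate 1 the values were 0.0295 and 0.0251. The remaining 4 genes were not called in either comparison by edgeR. With a correction for transcript length together with the replicate block, Pmvk (adjusted p = 0.0485) and Fdps (0.047) were called higher in UTX knockout. Under that setting Mvk (0.0367) was called higher in the labelled MLL4 knockdown. For mevalonate kinase, Mvk, the log2 fold change was 0.02 in UTX knockout and 0.39 in the labelled MLL4 knockdown. For phosphomevalonate kinase, Pmvk, it was 0.23 in UTX knockout and -0.02 in the labelled MLL4 knockdown. Farnesyl diphosphate synthase, Fdps, gave 0.30 in UTX knockout and -0.01 in the labelled MLL4 knockdown. Mvd, the decarboxylase that makes isopentenyl diphosphate, gave -0.01 in UTX knockout and -0.11 in the labelled MLL4 knockdown, and it lies on chromosome 8, where the medians were -0.44 and -0.41.

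The squalene and sterol branch held most of the increases in UTX knockout. Of its 11 genes, 9 rose in UTX knockout and 4 in the labelled MLL4 knockdown, and the branch median was 0.65 on the log2 scale in UTX knockout and 0.36 in the labelled MLL4 knockdown. Summed over the branch, the UTX knockout libraries had 998, 1068 and 1007 CPM, the labelled MLL4 knockdown libraries 898, 887 and 841 CPM, and the wild type libraries 875, 669 and 639 CPM. Wild type replicate 1 was thus close to the labelled MLL4 knockdown libraries, while all UTX knockout libraries were above every other library.

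Fdft1, squalene synthase, had 146, 162 and 156 CPM in UTX knockout libraries, 109, 104 and 112 CPM in labelled MLL4 knockdown libraries and 110.3, 96.5 and 82.4 CPM in wild type libraries. All UTX knockout libraries were above every other library, and the labelled MLL4 knockdown libraries overlapped wild type replicate 1. Its log2 fold change was 0.68 (adjusted p = 0.00445, SE 0.12) in UTX knockout and 0.17 (adjusted p = 0.316, SE 0.12) in the labelled MLL4 knockdown. Sqle, the squalene epoxidase that catalyses a rate-limiting step, had 115, 123 and 132 CPM in UTX knockout libraries, 96.2, 97.0 and 100.4 CPM in labelled MLL4 knockdown libraries and 94.7, 78.9 and 75.0 CPM in wild type libraries. The UTX knockout libraries were again the highest, and wild type replicate 1 lay just below the labelled knockdown libraries. This gave a log2 fold change of 0.58 (adjusted p = 0.00757, SE 0.11) in UTX knockout and 0.24 (adjusted p = 0.139, SE 0.11) in the labelled MLL4 knockdown. Without wild type replicate 1, Sqle was also called in the labelled MLL4 knockdown (adjusted p = 0.0284).

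Lss, the cyclase that closes squalene epoxide into lanosterol, had 106, 105 and 92.3 CPM in UTX knockout libraries, 79.8, 78.6 and 75.9 CPM in labelled MLL4 knockdown libraries and 88.4, 49.5 and 51.9 CPM in wild type libraries. Wild type replicates 2 and 3 were far below the rest, and wild type replicate 1 lay between the UTX knockout and the labelled knockdown libraries. Against wild type, the log2 fold change was 0.68 (adjusted p = 0.0343, SE 0.19) in UTX knockout and 0.31 (adjusted p = 0.26, SE 0.19) in the labelled MLL4 knockdown. The UTX knockout call was lost without knockout replicate 1 (0.0742), 2 (0.113) or 3 (0.0653), labelled knockdown replicate 2 (0.0555) or 3 (0.0541) or wild type replicate 2 (0.083) or 3 (0.101). Lss was called in the labelled MLL4 knockdown only when wild type replicate 1 was left out (adjusted p = 0.00244). Cyp51, the lanosterol demethylase, had 128, 157 and 155 CPM in UTX knockout libraries, 118, 118 and 114 CPM in labelled MLL4 knockdown libraries and 105, 85.0 and 83.0 CPM in wild type libraries. Every non-wild-type library was above every wild type library, and its log2 fold change was 0.69 (adjusted p = 0.00512, SE 0.12) in UTX knockout and 0.36 (adjusted p = 0.0538, SE 0.12) in the labelled MLL4 knockdown. The labelled knockdown value, not called by edgeR, was called by DESeq2 (adjusted p = 0.0293), with its size factors (0.0484), with no filter on low counts (0.0454), with the length correction (0.0431), with the replicate block (0.0473) and without knockout replicate 1 (0.0405) or wild type replicate 1 (0.0114).

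Tm7sf2 and Lbr encode the pair of sterol reductases that act after Cyp51, and Lbr is also a nuclear envelope receptor for lamin B. Tm7sf2 had 17.7, 16.0 and 16.5 CPM in UTX knockout libraries, 15.1, 15.6 and 12.8 CPM in labelled MLL4 knockdown libraries and 13.2, 11.5 and 8.82 CPM in wild type libraries. All UTX knockout libraries were above wild type, and the labelled MLL4 knockdown libraries overlapped wild type replicate 1. Against wild type, the log2 fold change was 0.58 (adjusted p = 0.0353, SE 0.17) in UTX knockout and 0.37 (adjusted p = 0.118, SE 0.17) in the labelled MLL4 knockdown. The UTX knockout call was lost without knockout replicate 1 (0.0732), 2 (0.0947) or 3 (0.0822), labelled knockdown replicate 2 (0.0569) or wild type replicate 2 (0.0552) or 3 (0.0924), and the labelled knockdown was called without wild type replicate 1 (adjusted p = 0.0338). Lbr had 274, 284 and 248 CPM in UTX knockout libraries, 282, 294 and 249 CPM in labelled MLL4 knockdown libraries and 294, 225 and 216 CPM in wild type libraries. Wild type replicate 1 was marginally the highest of all libraries and the groups overlapped, with log2 fold changes of 0.13 (adjusted p = 0.544, SE 0.13) in UTX knockout and 0.17 (adjusted p = 0.387, SE 0.13) in the labelled MLL4 knockdown. The difference in response between the paralogs was not tested.

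Nsdhl and Hsd17b7 act in turn to remove the methyl groups at carbon 4 of the sterol ring. Nsdhl had 38.6, 38.8 and 38.5 CPM in UTX knockout libraries, 38.8, 34.7 and 38.9 CPM in labelled MLL4 knockdown libraries and 29.9, 25.8 and 26.6 CPM in wild type libraries. Every non-wild-type library was above every wild type library, with log2 fold changes of 0.49 (adjusted p = 0.0134, SE 0.11) in UTX knockout and 0.45 (adjusted p = 0.0121, SE 0.11) in the labelled MLL4 knockdown. The UTX knockout call was lost without knockout replicate 2 (0.0558), and the labelled knockdown call was lost without labelled knockdown replicate 3 (0.0549). Hsd17b7 had 20.6, 18.3 and 17.2 CPM in UTX knockout libraries, 21.1, 19.5 and 16.3 CPM in labelled MLL4 knockdown libraries and 14.1, 9.20 and 12.4 CPM in wild type libraries. Its groups did not overlap either, with log2 fold changes of 0.66 (adjusted p = 0.0273, SE 0.17) in UTX knockout and 0.68 (adjusted p = 0.0151, SE 0.17) in the labelled MLL4 knockdown. For Hsd17b7 the UTX knockout call was lost without knockout replicate 1 (0.0677), 2 (0.0825) or 3 (0.0563) or wild type replicate 2 (0.0582) or 3 (0.0532). The labelled knockdown call was lost without labelled knockdown replicate 1 (0.0566) or 2 (0.0566).

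The last steps move and reduce double bonds. Ebp, the isomerase, had 23.9, 22.9 and 23.1 CPM in UTX knockout libraries, 27.8, 24.8 and 27.4 CPM in labelled MLL4 knockdown libraries and 15.5, 21.0 and 15.8 CPM in wild type libraries. All non-wild-type libraries were above all wild type libraries, and it was called in the labelled MLL4 knockdown, with a log2 fold change of 0.61 (adjusted p = 0.00831, SE 0.14), but not in UTX knockout, at 0.42 (adjusted p = 0.0627, SE 0.14). For UTX knockout it was called by DESeq2 (adjusted p = 0.0305), with the length correction (0.0116), with the replicate block (0.0487) and without wild type replicate 2 (0.0112). Sc5d, the desaturase, had 28.6, 38.7 and 35.7 CPM in UTX knockout libraries, 32.4, 31.0 and 29.9 CPM in labelled MLL4 knockdown libraries and 22.4, 18.7 and 18.7 CPM in wild type libraries. It was higher in every non-wild-type library than in every wild type library, with log2 fold changes of 0.79 (adjusted p = 0.00486, SE 0.14) in UTX knockout and 0.64 (adjusted p = 0.00646, SE 0.14) in the labelled MLL4 knockdown. Dhcr7, the reductase that finishes cholesterol from its direct precursor, had 99.5, 102 and 92.4 CPM in UTX knockout libraries, 77.5, 70.0 and 64.0 CPM in labelled MLL4 knockdown libraries and 86.8, 47.9 and 48.2 CPM in wild type libraries. All UTX knockout libraries were above wild type, but wild type replicate 1 exceeded every labelled MLL4 knockdown library. The log2 fold change was 0.69 (adjusted p = 0.0409, SE 0.20) in UTX knockout and 0.21 (adjusted p = 0.474, SE 0.20) in the labelled MLL4 knockdown. Dhcr7 in UTX knockout was no longer called without knockout replicate 1 (0.0779), 2 (0.13) or 3 (0.0845), labelled knockdown replicate 1 (0.0539), 2 (0.0646) or 3 (0.0591) or wild type replicate 2 (0.103) or 3 (0.12). In the labelled MLL4 knockdown it was called without wild type replicate 1 (adjusted p = 0.00589).

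**Figure D3:**
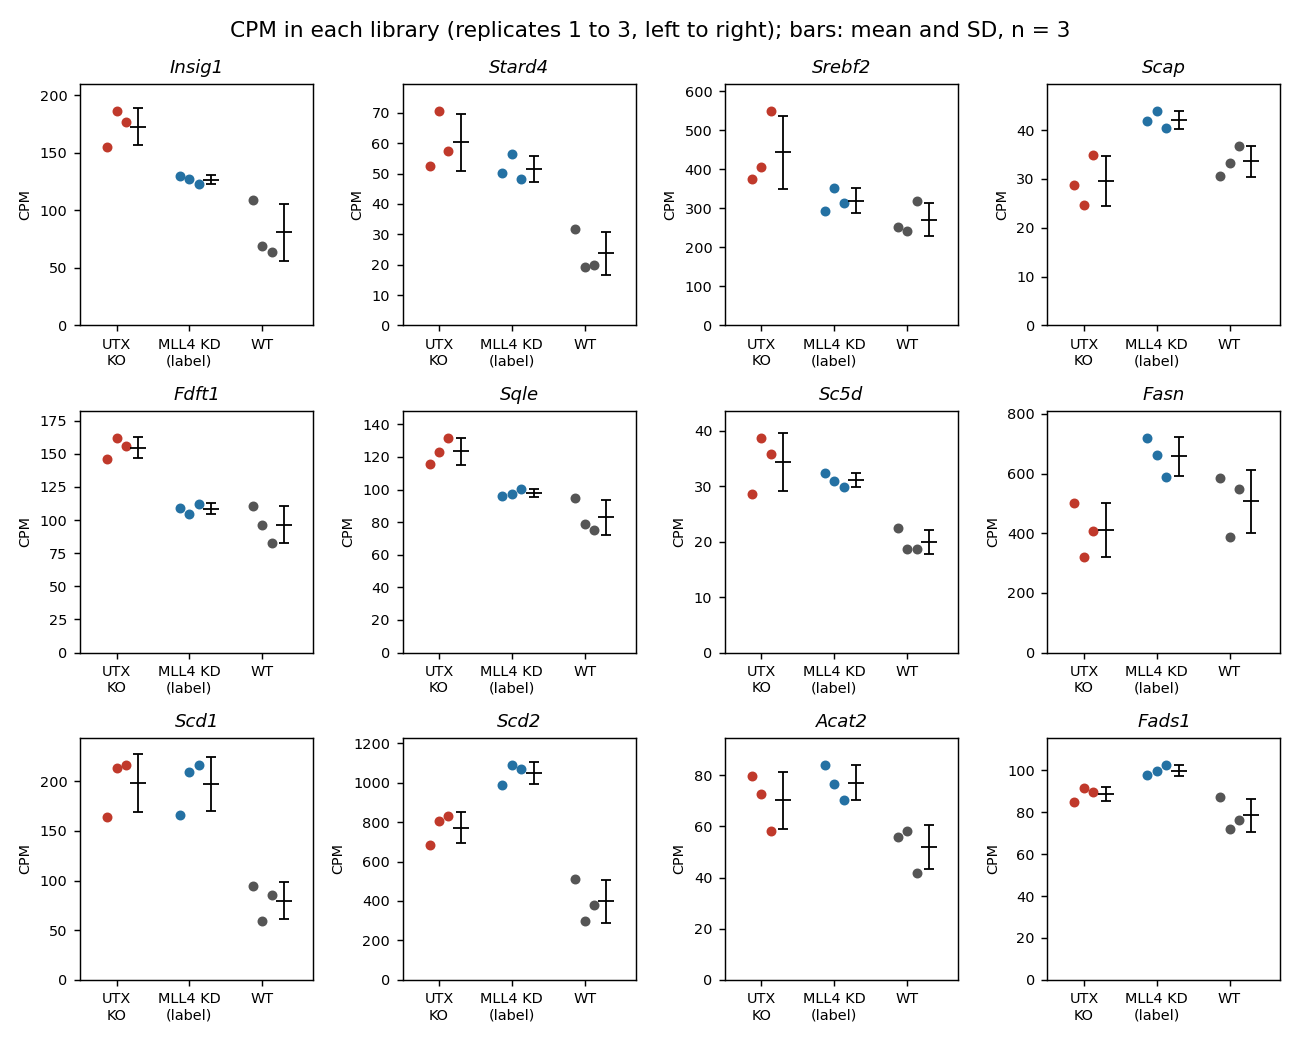
CPM in each library (points) with the mean and SD of the 3 libraries (bars beside the points) for 12 of the genes, with UTX knockout, labelled MLL4 knockdown and wild type from left to right in each panel. Insig1, Stard4, Sc5d, Scd1 and Scd2 lie higher in all non-wild-type libraries, Fdft1 and Sqle are highest in UTX knockout, and Fasn and Scap are lowest there.

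The regulators and the sterol carrier moved unevenly. Of 6 genes, 3 rose in UTX knockout and 2 in the labelled MLL4 knockdown, and none fell (edgeR and DESeq2 alike, with 0 lower at an unadjusted p under 0.05). Insig1, which retains the SREBPs and is itself a classical SREBP target, had 155, 187 and 176 CPM in UTX knockout libraries, 129.9, 127 and 123 CPM in labelled MLL4 knockdown libraries and 109, 69.3 and 64.1 CPM in wild type libraries. Every UTX knockout library was above every labelled knockdown library, and these were above every wild type library, of which replicate 1 was the highest. Its log2 fold change was 1.10 (adjusted p = 0.00306, SE 0.18) in UTX knockout and 0.65 (adjusted p = 0.0188, SE 0.18) in the labelled MLL4 knockdown. The labelled knockdown call was lost without labelled knockdown replicate 1 (0.0532) or 2 (0.0583) or wild type replicate 2 (0.0518) or 3 (0.0576). Its paralog Insig2, which is not known as a strong SREBP target, had 21.3, 27.8 and 21.7 CPM in UTX knockout libraries, 20.4, 21.2 and 18.4 CPM in labelled MLL4 knockdown libraries and 18.4, 19.1 and 18.6 CPM in wild type libraries. The UTX knockout libraries were above wild type and the labelled knockdown libraries overlapped it, with log2 fold changes of 0.34 (adjusted p = 0.113, SE 0.14) in UTX knockout and 0.10 (adjusted p = 0.636, SE 0.14) in the labelled MLL4 knockdown.

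Stard4, a carrier that moves cholesterol between membranes inside the cell, had 52.6, 70.8 and 57.4 CPM in UTX knockout libraries, 50.1, 56.5 and 48.2 CPM in labelled MLL4 knockdown libraries and 31.9, 19.4 and 20.0 CPM in wild type libraries. Its non-wild-type libraries were all above the wild type libraries. The log2 fold change of 1.35 (adjusted p = 0.00173, SE 0.19) in UTX knockout was the largest of the 32 genes there, and it was 1.12 (adjusted p = 0.00172, SE 0.19) in the labelled MLL4 knockdown. Srebf2 had 374, 406 and 551 CPM in UTX knockout libraries, 292, 353 and 315 CPM in labelled MLL4 knockdown libraries and 252, 241 and 319 CPM in wild type libraries. All UTX knockout libraries were above wild type, replicate 3 the furthest, and the labelled knockdown libraries overlapped wild type. Srebf2 rose in UTX knockout, with a log2 fold change of 0.71 (adjusted p = 0.0145, SE 0.16), and was not called in the labelled MLL4 knockdown, at 0.24 (adjusted p = 0.299, SE 0.16). The UTX knockout call was lost without knockout replicate 3 (0.058). Srebf1 had 62.5, 71.8 and 117 CPM in UTX knockout libraries, 64.3, 82.0 and 77.4 CPM in labelled MLL4 knockdown libraries and 49.4, 55.8 and 68.1 CPM in wild type libraries. UTX knockout replicate 3 stood well above the rest and the groups overlapped, with log2 fold changes of 0.53 (adjusted p = 0.113, SE 0.21) in UTX knockout and 0.37 (adjusted p = 0.228, SE 0.21) in the labelled MLL4 knockdown. In UTX knockout it was called with the replicate block (adjusted p = 0.0237) and without knockout replicate 1 (0.0466). Scap had 28.8, 24.7 and 34.9 CPM in UTX knockout libraries, 41.9, 44.0 and 40.4 CPM in labelled MLL4 knockdown libraries and 30.7, 33.2 and 36.8 CPM in wild type libraries. Its labelled knockdown libraries were above both other groups, which overlapped, and the log2 fold change was -0.19 (adjusted p = 0.395, SE 0.14) in UTX knockout and 0.33 (adjusted p = 0.106, SE 0.14) in the labelled MLL4 knockdown.

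Among the 8 genes of fatty acid synthesis and desaturation, 3 rose in UTX knockout, namely Scd1, Scd2 and Elovl6, and 3 in the labelled MLL4 knockdown, namely Scd1, Scd2 and Fads1. None fell by edgeR or DESeq2 in either comparison, with 0 lower at an unadjusted p under 0.05. Scd1 and Scd2 encode stearoyl-CoA desaturases, which make monounsaturated from saturated fatty acids. Scd1 had 164, 214 and 216 CPM in UTX knockout libraries, 166, 209.7 and 217 CPM in labelled MLL4 knockdown libraries and 94.6, 59.1 and 85.6 CPM in wild type libraries. The UTX knockout and labelled knockdown values were nearly the same and all lay well above wild type. This gave a log2 fold change of 1.31 (adjusted p = 0.00159, SE 0.18) in UTX knockout and 1.31 (adjusted p = 0.000561, SE 0.18) in the labelled MLL4 knockdown. Scd2 had 685, 803 and 829 CPM in UTX knockout libraries, 988, 1091 and 1072 CPM in labelled MLL4 knockdown libraries and 514, 299.5 and 380 CPM in wild type libraries. The labelled knockdown libraries were the highest, the UTX knockout libraries came next and the wild type libraries were the lowest, with no overlap between groups. Its log2 fold change was 0.96 (adjusted p = 0.00512, SE 0.17) in UTX knockout and 1.40 (adjusted p = 0.00026, SE 0.17) in the labelled MLL4 knockdown. Per kilobase of exon, Scd2 was the strongest of the 32 genes in both non-wild-type groups, at 141 RPKM in UTX knockout and 192 RPKM in the labelled MLL4 knockdown, against 72.8 RPKM in wild type.

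Acly, Acaca and Fasn, which act before the desaturases, were not called against wild type by edgeR. Acly, which makes cytosolic acetyl-CoA from citrate, had 657, 647 and 646 CPM in UTX knockout libraries, 658, 666 and 623 CPM in labelled MLL4 knockdown libraries and 556, 468 and 554 CPM in wild type libraries. Every non-wild-type library was above every wild type library, but neither the log2 fold change of 0.31 (adjusted p = 0.0684, SE 0.10) in UTX knockout nor that of 0.30 (adjusted p = 0.0515, SE 0.10) in the labelled MLL4 knockdown was called by edgeR. DESeq2 called both, at an adjusted p of 0.0252 in UTX knockout and 0.0152 in the labelled MLL4 knockdown, as did the length correction, at 0.044 and 0.0365. The labelled knockdown value was also called with DESeq2's size factors (0.0475), with the replicate block (0.0447) and without wild type replicate 1 (0.0465) or 3 (0.0485). Acaca, acetyl-CoA carboxylase, the committing step of fatty acid synthesis, had a log2 fold change of 0.10 in UTX knockout and 0.21 in the labelled MLL4 knockdown. Fasn, fatty acid synthase, had 501, 321 and 407 CPM in UTX knockout libraries, 720.3, 662 and 590.1 CPM in labelled MLL4 knockdown libraries and 584, 388 and 547 CPM in wild type libraries. The UTX knockout libraries overlapped the wild type ones, and all labelled knockdown libraries were above wild type. Neither the log2 fold change of -0.30 (adjusted p = 0.288, SE 0.18) in UTX knockout nor that of 0.38 (adjusted p = 0.155, SE 0.18) in the labelled MLL4 knockdown was called, and with the replicate block the labelled knockdown value was (adjusted p = 0.0372). With a correction for transcript length together with the replicate block, Fasn was called lower in UTX knockout, at a log2 fold change of -0.41.

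Elovl6, which lengthens palmitate, had 295, 296 and 284 CPM in UTX knockout libraries, 274, 256 and 257 CPM in labelled MLL4 knockdown libraries and 239, 186 and 232 CPM in wild type libraries. All non-wild-type libraries were above wild type, and Elovl6 rose in UTX knockout, with a log2 fold change of 0.42 (adjusted p = 0.031, SE 0.11), but was not called in the labelled MLL4 knockdown, at 0.26 (adjusted p = 0.109, SE 0.11). The call in UTX knockout was lost without knockout replicate 1 (0.0542), 2 (0.104) or 3 (0.0745) or labelled knockdown replicate 2 (0.0557) or 3 (0.0542). Fads1 and Fads2 are the desaturases of polyunsaturated fatty acids. Fads1 had 85.2, 91.5 and 89.8 CPM in UTX knockout libraries, 97.7, 99.5 and 103 CPM in labelled MLL4 knockdown libraries and 87.5, 72.0 and 76.5 CPM in wild type libraries. The labelled knockdown libraries were above wild type and the UTX knockout libraries overlapped it. Against wild type, the log2 fold change was 0.35 (adjusted p = 0.0301, SE 0.10) in the labelled MLL4 knockdown and 0.18 (adjusted p = 0.278, SE 0.10) in UTX knockout, and the labelled knockdown call was lost without labelled knockdown replicate 1 (0.0661), 2 (0.0892) or 3 (0.102) or wild type replicate 3 (0.0669), and with only the 2 groups compared (0.0613). Fads2 had 39.1, 33.6 and 41.0 CPM in UTX knockout libraries, 49.3, 42.5 and 47.5 CPM in labelled MLL4 knockdown libraries and 44.2, 29.5 and 39.1 CPM in wild type libraries. Both non-wild-type groups overlapped wild type, with log2 fold changes of 0.01 (adjusted p = 0.97, SE 0.15) in UTX knockout and 0.31 (adjusted p = 0.163, SE 0.15) in the labelled MLL4 knockdown.

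A direct test of the labelled MLL4 knockdown against UTX knockout, in which the wild type libraries enter only the estimate of the spread, called 5 of these genes. Of the 32 genes, 2 were higher in the labelled MLL4 knockdown and 3 were lower (edgeR), where 13% of all tested genes were higher and 16% were lower. For 7 genes every labelled knockdown library was above every UTX knockout library, against 25.7% of tested genes, and for 11 every library was below, against 26.9%. The median log2 difference of the 32 genes was -0.07, and by branch it was -0.03 in the mevalonate, -0.21 in the sterol, -0.23 in the regulator and 0.14 in the fatty acid branch. In the mevalonate branch 0 genes were called by edgeR or DESeq2, with 0 at an unadjusted p under 0.05. The numbers called were small and unstable: without any 1 of the UTX knockout or labelled knockdown libraries other than UTX knockout replicate 1, only 1 gene was lower, and the number higher lay between 0 and 2. Without wild type replicate 1, 7 were lower. With all wild type libraries left out of the fit, 4 genes were higher and 8 were lower. Those added were Scd2 (adjusted p = 0.00417) and Fads2 (0.0491), which were higher, and Fdps (0.0257), Lss (0.00711), Cyp51 (0.0159), Dhcr7 (0.00327) and Insig1 (0.00295), which were lower.

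The genes lower in the labelled MLL4 knockdown than in UTX knockout were Fdft1, Sqle and Srebf2. Fdft1 had 109, 104 and 112 CPM in labelled MLL4 knockdown libraries, against 146, 162 and 156 CPM in UTX knockout libraries, a log2 difference of -0.51 (adjusted p = 0.0082, SE 0.12). For Sqle the log2 difference was -0.34 (adjusted p = 0.0448, SE 0.11), and for Srebf2 it was -0.47 (adjusted p = 0.049, SE 0.16). All 3 genes had groups that did not overlap. The Sqle call was lost without knockout replicate 2 (0.111) or 3 (0.153) or labelled knockdown replicate 1 (0.129), 2 (0.131) or 3 (0.102), and with no filter on low counts (0.106). That of Srebf2 was lost without knockout replicate 2 (0.0744) or 3 (0.215) or labelled knockdown replicate 1 (0.161), 2 (0.0737) or 3 (0.131), and with DESeq2's size factors its adjusted p was 0.0522. The genes higher in the labelled MLL4 knockdown were Fasn and Scap. Fasn had 720.3, 662 and 590.1 CPM in labelled MLL4 knockdown libraries, against 501, 321 and 407 CPM in UTX knockout libraries, a log2 difference of 0.68 (adjusted p = 0.018, SE 0.18), and Scap a difference of 0.51 (adjusted p = 0.0183, SE 0.14). The Fasn call was lost without knockout replicate 2 (0.0781) or 3 (0.0617) or labelled knockdown replicate 1 (0.0685) or 2 (0.0538). For Scap it was lost without knockout replicate 2 (0.0808) or labelled knockdown replicate 1 (0.0514) or 2 (0.0704). With the replicate block, Dhcr7 (adjusted p = 0.0286) and Insig1 (0.0466) were also lower in the labelled MLL4 knockdown. Further genes were called under other settings. Scd2 was called higher by DESeq2 (adjusted p = 0.0482), with no filter on low counts (0.0417) and without wild type replicate 1 (0.0198) or 2 (0.0179). The length correction called Cyp51 lower (0.0443). Leaving out 1 library, Lss was lower without wild type replicate 1 (0.0188), Cyp51 lower without knockout replicate 1 (0.0313) or wild type replicate 1 (0.0339) or 2 (0.0396), Dhcr7 lower without wild type replicate 1 (0.00681) and Insig1 lower without wild type replicate 1 (0.00757). For Scd1 the log2 difference was -0.01, with a 95% interval of -0.40 to 0.39, and for Stard4 it was -0.22, with an interval of -0.64 to 0.19. With lane 2 alone, none of the 5 genes was called. All 5 kept their direction there, from 0.37 to 0.53 for those higher and from -0.61 to -0.33 for those lower. This follows from groups that did not overlap and is no further support.

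**Figure D4:**
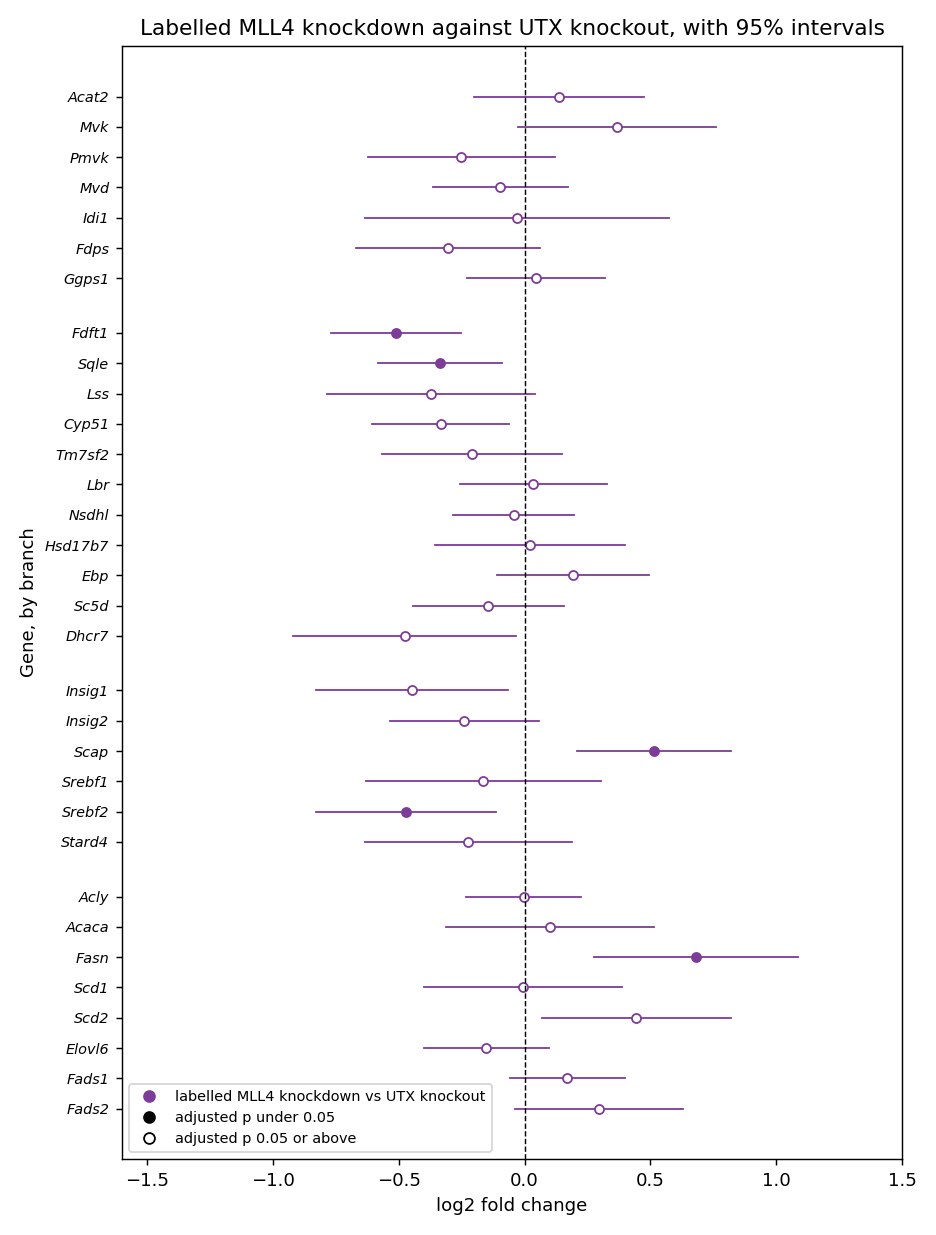
Log2 difference of the labelled MLL4 knockdown over UTX knockout for each of the 32 genes, with 95% confidence intervals, grouped by branch. Fasn and Scap are the called genes to the right of 0, and Fdft1, Sqle and Srebf2 are the called genes to the left.

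Genes around these pathways, taken from lists of related function, included both rises and falls, given on the log2 scale. Over all tested genes, 6.64% rose and 8.98% fell in UTX knockout, and 10.8% rose and 15.8% fell in the labelled MLL4 knockdown. The counts per list below are small and were not tested against these shares. Of 12 tested genes of other sterol synthesis and uptake steps, 3 rose and 1 fell in UTX knockout, and 2 rose and 1 fell in the labelled MLL4 knockdown. Among them, Msmo1, the sterol methyl oxidase that acts with Nsdhl and Hsd17b7 and is listed under its older symbol Sc4mol, had 143, 199 and 186 CPM in UTX knockout libraries, 94.7, 103 and 106 CPM in labelled MLL4 knockdown libraries and 133, 110 and 95.01 CPM in wild type libraries. It rose in UTX knockout by 0.65 (adjusted p = 0.0158, SE 0.15) and was lower in the labelled MLL4 knockdown than in UTX knockout, at a log2 difference of -0.80 (adjusted p = 0.00302, SE 0.15). Its UTX knockout call was lost without knockout replicate 2 (0.0776) or 3 (0.0562), and with only the 2 groups compared (0.0506). Msmo1 lies on chromosome 8, where the median gene was lower in UTX knockout than in wild type. Of 12 tested genes of SREBP processing and turnover, 1 rose and 2 fell in UTX knockout, and 3 rose and 3 fell in the labelled MLL4 knockdown. Mbtps1, the protease that makes the first cut in the SREBPs, fell in both, with log2 fold changes of -0.54 (adjusted p = 0.0049, SE 0.10) in UTX knockout and -0.42 (adjusted p = 0.00867, SE 0.10) in the labelled MLL4 knockdown, and it too lies on chromosome 8. Erlin1, an endoplasmic reticulum protein that acts in the degradation of sterol-regulated proteins, rose in UTX knockout, with a log2 fold change of 0.58 (adjusted p = 0.00838, SE 0.12), and fell in the labelled MLL4 knockdown, with -0.45 (adjusted p = 0.0166, SE 0.12), and the direct difference was -1.03 (adjusted p = 0.000196, SE 0.12). The fall of Erlin1 was not called without labelled knockdown replicate 1 (0.0641), 2 (0.0581) or 3 (0.0568) or wild type replicate 1 (0.0538).

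Of 9 tested LXR targets and efflux genes, 1 rose and 1 fell in UTX knockout, and 3 rose and 1 fell in the labelled MLL4 knockdown. Abca1, the cholesterol efflux transporter, rose in the labelled MLL4 knockdown by 1.82 (adjusted p = 0.000142, SE 0.21), with a direct difference over UTX knockout of 1.67 (adjusted p = 0.000286, SE 0.20). Arl4c, a small GTPase and known LXR target, fell in both, with log2 fold changes of -1.40 (adjusted p = 0.000335, SE 0.14) in UTX knockout and -3.40 (adjusted p = 7.09e-07, SE 0.16) in the labelled MLL4 knockdown. It had 15.6, 14.3 and 16.98 CPM in UTX knockout libraries, 4.57, 3.30 and 3.85 CPM in labelled MLL4 knockdown libraries and 37.0, 42.8 and 44.0 CPM in wild type libraries, with no overlap between groups. Of 11 genes that use isoprenoids, 1 rose and 1 fell in UTX knockout, and 1 rose and 4 fell in the labelled MLL4 knockdown. Of 24 tested genes of other fatty acid and glycerolipid synthesis, 5 rose and 2 fell in UTX knockout, and 2 rose and 5 fell in the labelled MLL4 knockdown. Elovl5, an elongase of polyunsaturated fatty acids, rose by 0.54 (adjusted p = 0.00576, SE 0.10) in UTX knockout and 0.56 (adjusted p = 0.00221, SE 0.10) in the labelled MLL4 knockdown. Elovl7, an elongase of saturated very long chains, rose by 1.33 (adjusted p = 0.00216, SE 0.20) in UTX knockout and 0.70 (adjusted p = 0.0229, SE 0.20) in the labelled MLL4 knockdown, where the call was lost without labelled knockdown replicate 2 (0.0798) or 3 (0.0868) or wild type replicate 3 (0.065). Lpin1, a phosphatidate phosphatase of triglyceride synthesis, rose in UTX knockout by 1.18 (adjusted p = 0.00117, SE 0.16) and was lower in the labelled MLL4 knockdown than in UTX knockout, at a log2 difference of -1.20 (adjusted p = 0.00039, SE 0.16). Of 10 tested genes of fatty acid oxidation, 3 rose and 1 fell in each comparison with wild type. Cpt1a, the gate of fatty acid entry into mitochondria, rose by 1.00 (adjusted p = 0.00109, SE 0.13) in UTX knockout and 0.59 (adjusted p = 0.00645, SE 0.13) in the labelled MLL4 knockdown. Its partner Cpt2, the transferase of the inner mitochondrial membrane, fell in both, with log2 fold changes of -0.58 (adjusted p = 0.00661, SE 0.11) in UTX knockout and -0.47 (adjusted p = 0.0101, SE 0.11) in the labelled MLL4 knockdown, where the call was lost without labelled knockdown replicate 2 (0.0548). Cpt2 lies on chromosome 4, where the medians were -0.15 and -0.21. Pdk4, the kinase that blocks pyruvate dehydrogenase, rose by 0.97 (adjusted p = 0.00139, SE 0.13) in UTX knockout and 0.89 (adjusted p = 0.00078, SE 0.13) in the labelled MLL4 knockdown.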

How the data were processed

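Total RNA was sequenced after TruSeq preparation, per the labels. The authors deposited 1 table of raw gene counts for 9 libraries, and per the submitters' processing notes STAR 2.4 and HTSeq 0.6.1 were used with hg19 and mm9 as builds, whose roles, like the strand setting, those notes do not state. Counts were used as deposited. Rows were tested with edgeR 4.0.16 (R 4.3.3, limma 3.58.1): filterByExpr by group with a minimum count of 10, TMM scaling, robust quasi-likelihood fit over all 9 libraries with a group term, two-sided test and Benjamini-Hochberg adjustment over 14772 genes at 0.05. Confidence intervals are at 95%. CPM used TMM-scaled library sizes, and RPKM used GENCODE M21 exon-union lengths, available for 98.1% of tested genes. Chromosomes came from RefSeq gene records for 97.2%, and no coordinates were converted from the counting build. Promoters are RefSeq sequences of GRCm38.p6, used by gene symbol. The edgeR fit was also run on simulated counts, whose outcome is not reported here. Those counts were drawn separately for each library, without the shared deviations of libraries of the same number.

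Groups came from the genotype label and titles. The members and lists were chosen with earlier results of these data known. Members were named by branch, with library values for those called against wild type, the regulators, the paralog pairs and, chosen after their values were seen, Ggps1, Idi1, Acly and Fasn. Genes outside the members were named only from lists of related function, when called, and were put through the same alternatives after the data were seen. Some such genes are not reported here. Deviations from group means of libraries with the same number, which share a lane, correlated over genes at 0.415, 0.168 and 0.381 between UTX knockout and wild type, and at 0.416, 0.182 and 0.238 between the labelled MLL4 knockdown and wild type. Between the labelled MLL4 knockdown and UTX knockout they correlated at 0.467, 0.181 and 0.308. Replicate 2 was weakly paired. Labelled MLL4 knockdown replicate 2 correlated at 0.226 with UTX knockout replicate 3, above its value with UTX knockout replicate 2. Wild type replicate 2 correlated at 0.158 with UTX knockout replicate 3 and at 0.154 with labelled MLL4 knockdown replicate 3, near its values with replicate 2. The numbers were taken to pair the libraries with this limit. Chi-square over degrees of freedom between libraries of a group was 6.67 or more, so none was a duplicate. Alternatives were DESeq2 1.42.0, its size factors in edgeR, TMM without chromosomes 4, 8, X and Y, no filter, a stricter filter, only the 2 groups compared, the replicate block, lane 2 only, a transcript length correction, and leaving out each library.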

Additional observations from a re-analysis of the deposited data

How the results depend on the processing

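No alternative turned the direction of a member in a comparison where it was called. For fits that only left out libraries this follows from the groups of each called member not overlapping. In UTX knockout against wild type, the number of members that rose was 9 with only the 2 groups compared, 0 in lane 2 and 24 with the length correction and the replicate block together, where 1 member, Fasn, fell. Over all genes, 482 rose and 758 fell with only the 2 groups compared, 1559 rose with the replicate block, 20 rose and 55 fell in lane 2, and 1895 rose and 2187 fell with length correction and block. In the labelled MLL4 knockdown against wild type, 4 members rose in lane 2 and 17 with length correction and block, and over all genes 430 rose and 922 fell in lane 2 and 2444 rose with length correction and block. In the labelled MLL4 knockdown against UTX knockout, 4 members rose and 8 fell with only the 2 groups compared, 5 fell with the replicate block, 0 rose and 0 fell in lane 2, and 7 fell with length correction and block. Over all genes 643 rose and 926 fell in lane 2. The cause of these shifts was not tested. Lane 2 and the 2 groups leave fewer libraries, but calls did not always drop with them. In the direct comparison, 5888 of all genes were called with only the 2 groups compared, against 4273 with all 9 libraries. The replicate block changed no other call than those given with the genes. Length correction and block together also called Ggps1 (adjusted p = 0.0432 by edgeR) and Insig2 (0.0409) higher in UTX knockout than in wild type. In the labelled MLL4 knockdown they called Tm7sf2 (0.0436) and Fads2 (0.0266) higher than in wild type.

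Leaving out 1 library, members that rose in UTX knockout numbered 9 to 16 and those that fell 0, and over all genes 326 to 1316 rose and 496 to 1548 fell. In the labelled MLL4 knockdown against wild type these were 6 to 18, 0, 798 to 1801 and 1477 to 2407. In the direct comparison they were 0 to 3, 1 to 7, 1011 to 2492 and 1546 to 2821.

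Uncalled values near 0 turned sign. In UTX knockout against wild type, lane 2 gave 0.119 for Mvd, -0.038 for Acaca and -0.056 for Fads2, length correction gave 0.069 for Mvd and -0.035 for Acaca, adding the block to it gave 0.068 and -0.036, and TMM outside chromosomes 4, 8, X and Y gave -0.026 for Fads2 and -0.021 for Mvk. In the labelled MLL4 knockdown against wild type, Fdps was 0.007 with DESeq2 or its size factors, 0.028 without filter, 0.002 with the 2 groups, 0.02 with the block, 0.1 in lane 2 and 0.025 with length correction and block. Pmvk was 0.012 without filter, 0.183 in lane 2 and 0.105 with length correction, 0.102 with the block added. Length correction gave 0.002 for Mvd and -0.008 for Acaca, and with the block 0.002 and -0.01. In the direct comparison, DESeq2 or its size factors gave 0.006 for Acly and 0.001 for Scd1, no filter gave 0.02 and 0.017, and lane 2 gave 0.004 for Scd1, 0.101 for Idi1, 0.011 for Nsdhl and -0.018 for Hsd17b7. Leaving out 1 library, the UTX knockout values against wild type ran from -0.069 to 0.182 for Mvk, -0.09 to 0.078 for Mvd, -0.087 to 0.31 for Acaca and -0.136 to 0.157 for Fads2. Those of the labelled MLL4 knockdown against wild type ran from -0.134 to 0.162 for Pmvk and -0.197 to 0.136 for Fdps. The direct differences ran from -0.289 to 0.1 for Idi1, -0.034 to 0.118 for Ggps1, -0.02 to 0.101 for Lbr, -0.071 to 0.011 for Nsdhl, -0.059 to 0.12 for Hsd17b7, -0.336 to 0.151 for Srebf1, -0.018 to 0.027 for Acly, -0.017 to 0.208 for Acaca and -0.124 to 0.105 for Scd1.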
